A study of Mus musculus with 2 samples.

Results

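Mouse bone marrow yielded a large class of barcodes that hold almost nothing but hemoglobin RNA. They were defined by a rule on measured values: fewer than 200 detected genes, and at least 80% of the unique molecular identifiers (UMIs, each counting 1 captured transcript) from the adult globin genes Hba-a1, Hba-a2, Hbb-bs and Hbb-bt, with no limit on mitochondrial UMIs. The rule selected 4210 of 17045 barcodes, which a minimum of 200 genes per cell removes. The null-labelled library, from mice labelled Apoe(-/-), Itgb3(-/-), held 1101 of them among 4281 barcodes, and the control-labelled library, from mice labelled Apoe(-/-), Itgb3(+/+), held 3109 among 12764; beside values, null and control in brackets stand for these libraries. Both libraries came from marrow of C57BL/6 mice aged 6 months with the disease label atherosclerosis, and both lacked Apoe by label, so neither is a wild-type marrow. Apoe encodes the lipoprotein whose loss raises plasma cholesterol in mice, and Itgb3 encodes the integrin subunit that pairs with Itga2b on platelets. There was 1 library per genotype, and the labels give neither the number of animals in each nor the deleted part of either gene. No test between genotypes was therefore possible, p-values are absent, and all intervals are 95% intervals for counting error alone.

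Reticulocytes are young red cells that have expelled their nucleus. They make no new RNA, and they translate the globin and other messages left from the erythroblast stage while they clear ribosomes, mitochondria and surplus membrane through the ubiquitin system and autophagy. Mature red cells hold very little RNA. Such barcodes can hold messages that a nearly finished red cell still carries, and free RNA that droplets take up from other cells of the suspension. The origin of the non-hemoglobin RNA measured here was not tested.

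The selected barcodes made up 25.7% of the null-labelled library (24.4 to 27.1%, exact Clopper-Pearson interval) and 24.4% of the control-labelled library (23.6 to 25.1%). They carried 58.7% of all hemoglobin UMIs of the null-labelled library and 54.3% of those of the control-labelled library. Nearly every barcode with fewer than 200 genes was of this kind, 91.6% (1101 of 1202) in the null-labelled and 96.5% (3109 of 3223) in the control-labelled library. Most of the others, 98 (null) and 102 (control) barcodes, had less than 10% hemoglobin, and 91.6% (null) and 95.01% (control) of their non-hemoglobin UMIs were mitochondrial. The hemoglobin limit hardly cut through a population: 0 null-labelled and 4 control-labelled members lay between 80 and 82%, and 2 (null) and 1 (control) barcodes lay between 78 and 80%. The gene limit did. In the null-labelled library 49 barcodes had 190 to 199 genes and a median of 93.9% hemoglobin, and 38 had 200 to 209 genes and 93.6%. In the control-labelled library the same bins held 119 barcodes at 89.8% and 97 barcodes at 89.5%. Of all barcodes with at least 80% hemoglobin, the members were 78.2% of 1408 in the null-labelled and 85.1% of 3655 in the control-labelled library.

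**Figure D1:**
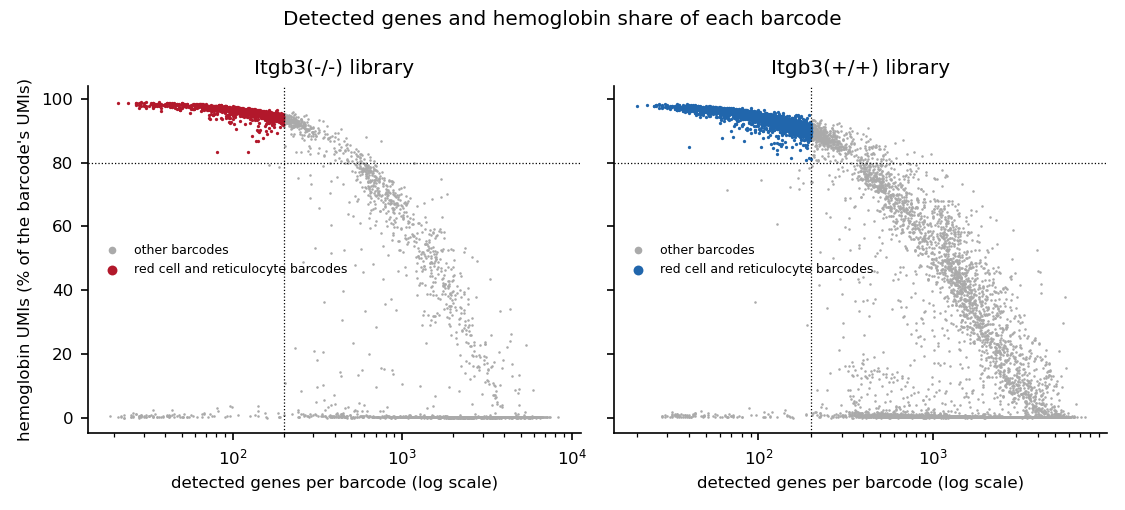
Each point is 1 barcode, with detected genes on a log axis and hemoglobin as a percentage of its UMIs; the left panel is the Itgb3(-/-) library, the right one the Itgb3(+/+) library, and dotted lines mark 200 genes and 80%. The coloured members, 1101 barcodes on the left and 3109 on the right, form the upper left end of a continuous band of hemoglobin-rich barcodes, and the sparse barcodes near 0% hemoglobin form a separate strip.

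Depth per barcode differed between the libraries. Members had a median of 9210 UMIs in the null-labelled and 3994 in the control-labelled library, with medians of 122 (null) and 116 (control) detected genes. Non-hemoglobin UMIs were 4.19% of all UMIs of the null-labelled members (400099 UMIs) and 6.80% of those of the control-labelled members (817130 UMIs), with a median of 363 (null) and 262 (control) per barcode. Levels below are in CPM, the UMIs of a gene per 1000000 of these non-hemoglobin UMIs, summed over the members of a library. Late erythroblasts, the neighbouring stage, served for comparison: barcodes with at least 200 genes, over 60% hemoglobin and at most 10% mitochondrial UMIs, of which there were 608 in the null-labelled and 1161 in the control-labelled library. The libraries shared 11 barcode sequences, of which 1 was a member in both.

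The label was checked against Bpgm, since the other defining markers are the globins of the rule. Bpgm, whose enzyme makes the bisphosphoglycerate that lowers the oxygen affinity of hemoglobin, was not used by the rule. Its level was 45274 CPM in null-labelled and 44177 CPM in control-labelled members, a ratio of 1.02 (1.01 to 1.04), against 9677 (null) and 13902 CPM (control) in the late erythroblasts of the same libraries. In members it took 3.57% (null) and 3.88% (control) of non-hemoglobin UMIs up to 99 genes. The shares were 4.86% (null) and 4.86% (control) at 100 to 149 genes, and 4.61% (null) and 4.24% (control) at 150 to 199 genes. Barcodes outside the gene limit that met the same hemoglobin limit had 3.52% (null) and 3.62% (control) at 200 to 249 genes. At 250 to 299 genes they had 2.74% (null) and 3.07% (control). A high level of Bpgm was thus not particular to members. A Bpgm UMI was found in 91.6% of null-labelled and 92.3% of control-labelled members. With every barcode thinned to 500 UMIs the shares were 54.3% (null) and 67.5% (control), against 1.98% (null) and 6.14% (control) in the other barcodes with fewer than 200 genes, whose median depth before thinning was 763 (null) and 897 UMIs (control). Late erythroblasts had thinned shares of 46.7% (null) and 71.4% (control), so Bpgm set members apart from the other sparse barcodes but, by this share, not from late erythroblasts of both libraries. Thinned UMIs included hemoglobin. Non-hemoglobin UMIs were 4.19% (null) and 6.80% (control) of all UMIs in members, and 17.7% (null) and 21.6% (control) in late erythroblasts. Thinned shares are therefore not levels per non-hemoglobin UMI, as CPM is, between these sets or between the libraries.

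Globin messages were not in equal balance. The alpha genes together gave 0.526 UMIs per beta UMI in the null-labelled and 0.423 in the control-labelled members. The corresponding late erythroblasts had 0.518 (null) and 0.454 (control). Hba-a1 (GRCm38 chromosome 11, 32283511 to 32284465, plus strand) exceeded Hba-a2 (32296489 to 32297298, plus strand) by a factor of 1.36 (null) and 1.29 (control), but these are near-identical copies and the split of reads between them is uncertain. Hbb-bs (chromosome 7, 103826534 to 103828096, minus strand) was the leading globin message, with 54.1% of the UMIs of the 4 genes in the null-labelled and 56.5% in the control-labelled members. Its ratio to Hbb-bt (103812524 to 103813996, minus strand) was 4.74 (null) and 4.11 (control). The minor alpha-like genes Hbq1a and Hbq1b were rare, and together with the other non-adult globins they took 0.140% (null) and 0.125% (control) of non-hemoglobin UMIs.

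The remaining RNA was dominated by few genes. The 20 annotated genes highest in members took 45.7% of non-hemoglobin UMIs in the null-labelled and 41.6% in the control-labelled members, against 16.5% (null) and 18.9% (control) in late erythroblasts and 3.58% (null) and 3.06% (control) in all other barcodes. Being chosen for their level in members, these genes were bound to take less elsewhere. The 20 genes highest in late erythroblasts took 26.2% (null) and 21.5% (control) there, and the 20 highest in all other barcodes 23.2% (null) and 23.1% (control) there. The most abundant single feature was Gm42418, a predicted gene that overlaps a ribosomal RNA locus (chromosome 17, 39846958 to 39848788), with 8.83% of non-hemoglobin UMIs in the null-labelled and 5.14% in the control-labelled members. It is left out of the ranking below.

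Genes of heme synthesis took 6.79% of non-hemoglobin UMIs in the null-labelled and 4.75% in the control-labelled members. Alas2, the erythroid enzyme of the first and rate-limiting step, had 58466 CPM in null-labelled and 37442 CPM in control-labelled members, a ratio of 1.56 (1.54 to 1.59), and 11184 (null) and 11285 CPM (control) in late erythroblasts. It was found in 99.0% (null) and 98.3% (control) of members, with a median of 10 UMIs per barcode in the control-labelled library. Fech, the enzyme of the last step that inserts iron, had 8630 (null) and 9449 CPM (control), above the 2018 (null) and 4103 CPM (control) of late erythroblasts. The pathway was not uniform: Cpox, the coproporphyrinogen oxidase between these steps, was 27.8-fold (null) and 11.8-fold (control) lower in members than in late erythroblasts. Of 8 genes of the pathway, 2 were at least 2-fold higher and 6 at least 2-fold lower in members of both libraries. Over all 2046 genes compared, 2.35% were at least 2-fold higher and 59.3% at least 2-fold lower in both libraries. Because the rule chose members by their low gene number and high hemoglobin, every member-to-erythroblast ratio is a description and nothing is read from these counts.

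Iron storage genes were also abundant. The ferritin light chain Ftl1 had 33854 CPM in null-labelled and 29006 CPM in control-labelled members, and the heavy chain Fth1 had 15801 (null) and 11576 CPM (control). Both were above the late erythroblasts, which had 7411 (null) and 11436 CPM (control) of Ftl1 and 6470 (null) and 10435 CPM (control) of Fth1. The transferrin receptor gene Tfrc, by which erythroblasts take up iron, was near the limit of detection at all depths, with no more than 27.1 CPM in null-labelled and 59.8 CPM in control-labelled members when these were split into 3 groups by UMIs. The iron and heme transport list as a whole took 5.95% (null) and 5.54% (control) of non-hemoglobin UMIs of members, against 2.23% (null) and 3.47% (control) in late erythroblasts.

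Genes of remodelling, the ubiquitin system and mitophagy formed the largest group, with 19.6% of non-hemoglobin UMIs in the null-labelled and 19.7% in the control-labelled members, against 8.97% (null) and 9.67% (control) in late erythroblasts. Barcodes outside the gene limit that met the same hemoglobin limit were closer to members. They had 17.5% (null) and 17.7% (control) at 200 to 249 genes, and 14.8% (null) and 16.1% (control) at 250 to 299 genes. A high share of this group was thus not particular to members. The ubiquitin gene Ubb had 44966 (null) and 34006 CPM (control). The ubiquitin ligase gene Mkrn1 had 36299 (null) and 41394 CPM (control), about 3 times the late erythroblasts of either library at 3.09-fold (null) and 2.96-fold (control). Fam46c, which encodes a poly(A) polymerase, had 23164 (null) and 21703 CPM (control), and Ube2l6, the conjugating enzyme of ubiquitin and Isg15, had 21855 (null) and 12140 CPM (control). Bnip3l, the receptor that marks mitochondria for removal in reticulocytes, had 13332 (null) and 15532 CPM (control), 3.34-fold (null) and 2.88-fold (control) above late erythroblasts. The autophagy gene Gabarapl2 was 3.56-fold (null) and 3.28-fold (control) above them. Of 33 genes of the list, 8 were at least 2-fold higher and 10 at least 2-fold lower in members of both libraries. The shares over all 2046 genes compared were 2.35% higher and 59.3% lower.

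Enzymes against oxidation and of red cell metabolism took 10.5% (null) and 10.1% (control) of non-hemoglobin UMIs. Gpx1, the glutathione peroxidase that uses selenium, had 29673 CPM in null-labelled and 27947 CPM in control-labelled members, against 20974 (null) and 26137 CPM (control) in late erythroblasts. The peroxiredoxin gene Prdx2 differed more, with 17743 (null) and 7535 CPM (control). The membrane and skeleton list took 2.74% (null) and 2.85% (control), with Epb41, whose protein joins spectrin to actin, at 13189 (null) and 12480 CPM (control) and the surface antigen gene Cd24a at 5981 (null) and 6320 CPM (control). Of 25 membrane genes compared with late erythroblasts, 1 was at least 2-fold higher and 17 at least 2-fold lower in both libraries. Among all 2046 genes compared, 2.35% were higher and 59.3% lower, so these counts are not read as a trait of membrane genes. Oaz1, the antizyme that limits polyamine synthesis, had 17388 (null) and 22088 CPM (control), and Sec61g, a subunit of the channel for secreted proteins, 11570 (null) and 14201 CPM (control).

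RNA of the translation machinery and of mitochondria remained measurable. The 84 ribosomal protein genes took 4.96% of non-hemoglobin UMIs in the null-labelled and 4.88% in the control-labelled members, against 3.56% (null) and 5.87% (control) in late erythroblasts and 19.4% (null) and 17.4% (control) in all other barcodes. Rpl41 led them, with 6671 (null) and 5344 CPM (control). Tpt1, which encodes the translationally controlled tumour protein, had 13567 (null) and 12428 CPM (control). Mitochondrially encoded genes took 3.70% (null) and 3.55% (control), and mt-Co1, a subunit of cytochrome oxidase, had 14746 (null) and 13445 CPM (control). No mitochondrial UMI at all was found in 6.90% (null) and 6.40% (control) of members, whereas 2 (null) and 4 (control) members had over 10% mitochondrial UMIs.

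Nuclear and cell-cycle RNA was low against late erythroblasts. Malat1, a nuclear RNA that is among the most abundant transcripts of nucleated cells, had 217 CPM in null-labelled and 567 CPM in control-labelled members, against 30245 (null) and 26019 CPM (control) in late erythroblasts, 139-fold (null) and 45.9-fold (control) lower. Neat1, another nuclear RNA, was 50.3-fold (null) and 41.3-fold (control) lower, and the short-lived antiproliferative message Btg2 was 101-fold (null) and 34.1-fold (control) lower. The mitochondrial transporter gene Abcb10 was 120-fold (null) and 51.9-fold (control) lower, on 2 (null) and 9 UMIs (control). Other genes at the low end were Akap13, Pik3r1, Sertad2, Pnp2, Btnl10 and Ypel4, the last with 0 UMIs in the null-labelled and 3 in the control-labelled members. The regulators of erythroid transcription took 0.0507% (null) and 0.123% (control) of non-hemoglobin UMIs, and 8 of 10 compared were at least 2-fold lower than in late erythroblasts of both libraries, and none was at least 2-fold higher. Of 12 cell division genes, 10 were at least 2-fold lower in both libraries and none at least 2-fold higher. Over all 2046 genes compared, 59.3% were lower and 2.35% higher by this measure, and nothing is read from either count. At the other end stood Hbq1a, 6.38-fold (null) and 3.89-fold (control) higher, Fam220a, 5.16-fold (null) and 3.52-fold (control) higher, and the mitochondrial carrier gene Slc25a39, 3.79-fold (null) and 2.82-fold (control) higher. For the list of nuclear RNA and chromatin genes, barcodes outside the gene limit that met the members' hemoglobin limit were close to members. They had 0.226% (null) and 1.45% (control) at 200 to 249 genes, and 0.339% (null) and 1.53% (control) at 250 to 299 genes. Members had 0.269% (null) and 1.47% (control) of non-hemoglobin UMIs, mostly from H3f3a. A low share of this list was thus not particular to members. Malat1 and Neat1 alone were not compared outside the gene limit.

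**Figure D2:**
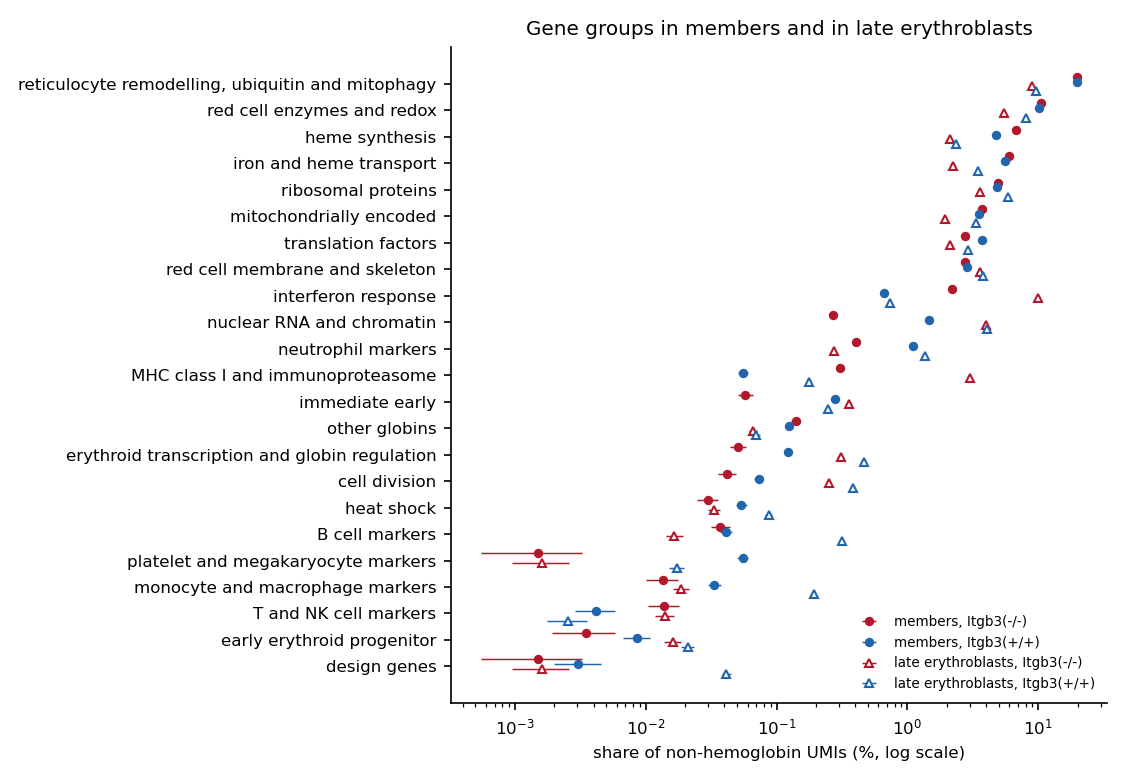
The share of non-hemoglobin UMIs, in percent on a log axis, is plotted for each gene group in members (filled circles) and late erythroblasts (open triangles) of the Itgb3(-/-) library (red) and the Itgb3(+/+) library (blue); bars are exact 95% intervals of counting error. Remodelling, enzyme, heme and iron genes lie to the right of late erythroblasts, and nuclear, cell division and MHC class I genes lie to their left.

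The members were not uniform. They were split into 3 equal groups by detected genes, and the group with the fewest genes was set against that with the most within each library. Since detected genes also chose the members, these values are a description. The gene-poor group had a median of 70 genes in the null-labelled and 64 in the control-labelled library, and the gene-rich group 169 (null) and 163 (control). Hemoglobin UMIs per barcode were 6320 in the gene-poor and 9858 in the gene-rich group of the null-labelled library, and 2695 in the gene-poor and 4310 in the gene-rich group in the control-labelled library. Non-hemoglobin UMIs per barcode differed more, with 171 in the gene-poor and 552 in the gene-rich group of the null-labelled library, and 112 and 412 in those of the control-labelled library.

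Messages differed in how far these groups were apart. Alas2 had 15.4 UMIs per barcode in the gene-poor group and 25.5 in the gene-rich group of the null-labelled library, and 6.85 and 11.8 in the control-labelled library. In the same order of groups, Ftl1 had 10.7 and 13.8 UMIs in the null-labelled and 5.54 and 9.01 in the control-labelled library, and Tpt1 had 3.92 and 5.91 UMIs in the null-labelled and 2.96 and 3.53 in the control-labelled library. These messages were still common in barcodes with few genes. Bpgm, by contrast, had 5.92 UMIs in the gene-poor and 25.6 in the gene-rich group of the null-labelled library, and 3.90 and 17.9 in the control-labelled library. In that order, Gpx1 had 1.17 and 22.4 UMIs in the null-labelled and 0.699 and 15.0 in the control-labelled library. Prdx2 had 1.52 and 10.7 UMIs in the null-labelled and 0.188 and 4.22 in the control-labelled library. These messages were scarce in barcodes with few genes, in both libraries.

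**Figure D3:**
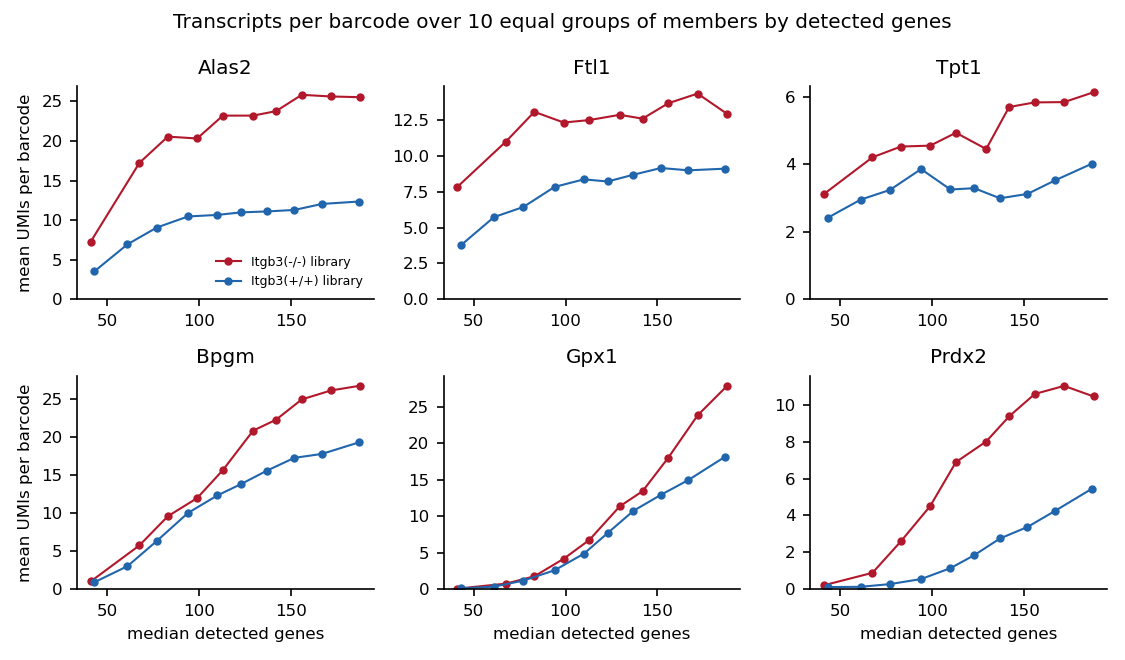
Mean UMIs per barcode (vertical axes, from 0) of 6 genes over 10 equal groups of members ordered by detected genes, plotted at the median number of genes of each group, for the Itgb3(-/-) library (red) and the Itgb3(+/+) library (blue). Alas2 has 7.29 UMIs in the first, 20.3 in the fourth and 25.5 in the last group of the Itgb3(-/-) library, whereas Gpx1 has 0.06 UMIs in the first and 27.85 in the last group of the Itgb3(-/-) library, and 0.09 and 18.15 in those of the Itgb3(+/+) library.

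As shares of the non-hemoglobin RNA, 433 genes had enough UMIs to compare these groups in both libraries. In both libraries 31 (7.16%) were at least 2-fold higher and 110 (25.4%) at least 2-fold lower in the gene-poor group. The lower ones included 8 of 11 membrane genes, 8 of 11 enzyme genes and 7 of 22 remodelling genes, with no gene of these lists at least 2-fold higher. Mpp1, a membrane skeleton protein gene, was 10.7-fold (null) and 7.52-fold (control) lower, and Blvrb, the biliverdin reductase gene, 4.91-fold (null) and 7.64-fold (control). The higher ones included 11 of 69 ribosomal protein genes, none of which was at least 2-fold lower, with Rplp1 2.72-fold (null) and 2.78-fold (control) higher and Rpl41 2.57-fold (null) and 2.83-fold (control) higher. All 5 neutrophil markers compared were also among the higher ones. Neutrophil markers took 0.729% of non-hemoglobin UMIs in the gene-poor group of the null-labelled and 2.05% in that of the control-labelled library, against 0.303% (null) and 0.836% (control) in the gene-rich groups. Its part in the other differences was not tested. Splitting by UMIs in place of genes gave 1.95% higher and 2.19% lower among 411 genes.

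The gradient also showed in single messages. No Gpx1 UMI was found in 285 null-labelled (25.9%) and 791 control-labelled members (25.4%). Prdx2 was found in 39.3% of these barcodes in the null-labelled and 12.01% in the control-labelled library, against 94.1% (null) and 69.5% (control) of members with a Gpx1 UMI. Alas2 was still found in 96.5% (null) and 94.3% (control) of the barcodes with no Gpx1 UMI. Tpt1 was equally abundant on both sides, at 4.96 (null) and 3.31 UMIs (control) per barcode without Gpx1, and at 4.92 (null) and 3.25 UMIs (control) with it. The globin balance moved along the same gradient, with 5.72 Hbb-bs UMIs per Hbb-bt UMI in the gene-poor and 4.45 in the gene-rich group of the null-labelled library, and 5.56 and 3.70 in the control-labelled library. Depth differed across these splits as well, with medians of 6965 (null) and 2841 UMIs (control) without Gpx1 and 9775 (null) and 4247 UMIs (control) with it, and its part was not tested.

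The 2 libraries were then compared gene by gene. Itgb3 had 0 UMIs in the null-labelled members, which allows up to 3, and 6 in the control-labelled members. Over all other barcodes it had 9.72 (null) and 25.7 CPM (control), and since the deleted part of the gene is not given, 3′ counts may not report the deletion. Apoe had 4 (null) and 15 UMIs (control), and Itga2b 2 (null) and 3 UMIs (control), too few to compare. Among 1184 genes with at least 30 UMIs over both libraries, 80 (6.76%) were at least 2-fold higher and 394 (33.3%) at least 2-fold lower in the null-labelled members. The median log2 ratio was -0.48, and the medians of gene groups below are to be read against it. Scaled by the median ratio instead, 155 genes were at least 2-fold higher and 228 at least 2-fold lower.

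Among the red cell groups, the sum of heme synthesis genes was 1.43-fold higher in the null-labelled members (1.41 to 1.45). Alas2 gave 23392 of this list's 27151 UMIs in null-labelled and 30595 of 38848 in control-labelled members, so the sum mostly follows this gene. The sums of remodelling, enzyme, membrane, ribosomal and mitochondrially encoded genes differed by less than 1.1-fold. Remodelling genes had a median log2 ratio of -0.30, with 1 of 29 at least 2-fold higher and 5 lower. Heme synthesis genes had a median of 0.13, with Cpox the 1 of 6 that was at least 2-fold lower, on 4 (null) and 50 UMIs (control). Ribosomal protein genes had a median of -0.12 and 6 of 79 lower, and mitochondrially encoded genes a median of 0.05 and 1 of 12 lower. Membrane genes split, with 5 of 21 at least 2-fold higher and 4 lower around a median of -0.08. Tmod1, which caps actin filaments, was 3.16-fold higher. Among enzymes, 2 of 16 were at least 2-fold higher and 7 lower, around a median of -0.70. Prdx2 was 2.35-fold higher (2.27 to 2.44) and Selenow, a small selenoprotein gene, 3.13-fold higher, whereas Glrx5, which serves iron-sulfur cluster assembly, was 3.56-fold lower. The signs of the medians of remodelling, ribosomal and membrane genes turned positive when scaled by the median ratio.

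**Figure D4:**
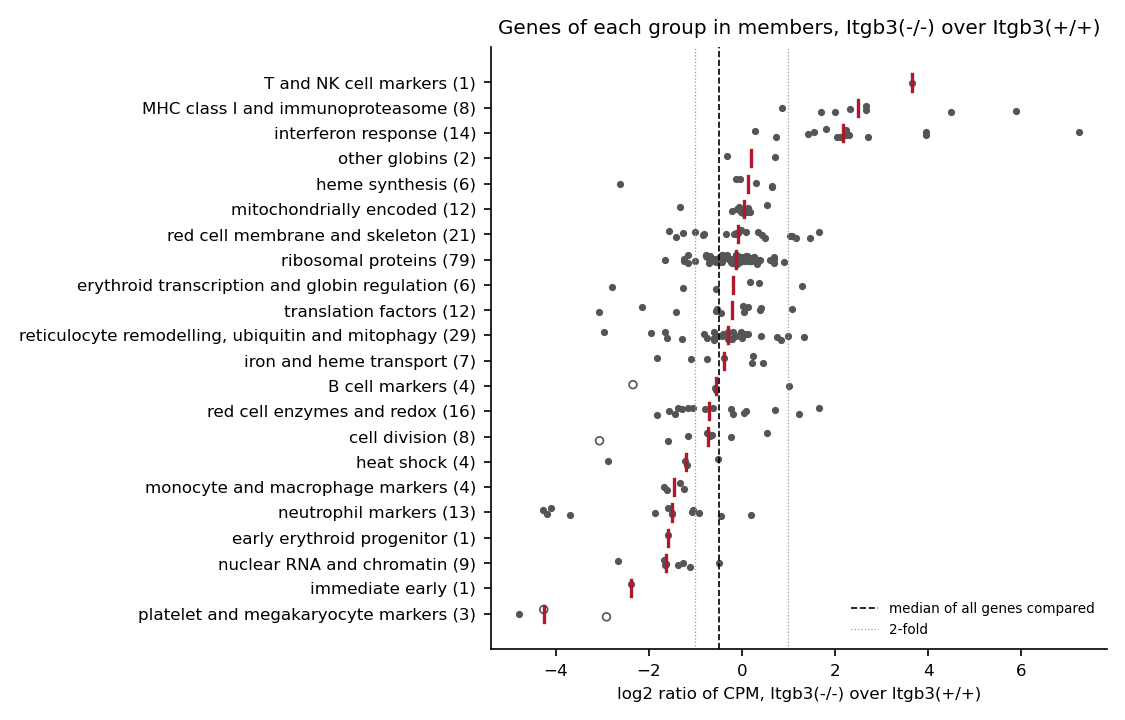
Each dot is 1 gene of a group with at least 30 UMIs, placed by its log2 ratio of CPM in members, Itgb3(-/-) over Itgb3(+/+); open circles have 0 UMIs in the Itgb3(-/-) library and stand at a bound from 3 UMIs, red bars are group medians and the dashed line is the median of all 1184 genes, -0.48. Interferon and MHC class I genes lie right of 0, and platelet, nuclear and neutrophil genes lie mostly left of the dashed line.

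Among lists with over 10 genes compared, interferon response genes had the median ratio farthest from 0, on the side of the null-labelled members. Interferons act through Stat and Irf transcription factors, which bind short GAAA repeats in promoters and switch on antiviral genes such as Isg15, a ubiquitin-like modifier, and Rsad2, the radical enzyme viperin. Of 14 such genes compared, 12 were at least 2-fold higher and none at least 2-fold lower, with a median log2 ratio of 2.17. The difference in this list and in MHC class I genes was known from earlier results on other cells of the same libraries, so these members are no independent evidence of its direction. The promoters of the list's 2 most abundant members show the repeat. Each is printed from 250 bases before the transcript start, 5′ to 3′ on the gene's own minus strand, with matches to GAAANNGAAA on either strand in capitals.
Isg15, GRCm38.p6 chr4:156200819-156201068: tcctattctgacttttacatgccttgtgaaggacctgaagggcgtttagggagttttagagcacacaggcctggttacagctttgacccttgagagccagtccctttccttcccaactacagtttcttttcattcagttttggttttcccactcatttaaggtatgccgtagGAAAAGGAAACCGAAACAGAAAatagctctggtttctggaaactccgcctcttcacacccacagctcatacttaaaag
Rsad2, GRCm38.p6 chr12:26456453-26456702: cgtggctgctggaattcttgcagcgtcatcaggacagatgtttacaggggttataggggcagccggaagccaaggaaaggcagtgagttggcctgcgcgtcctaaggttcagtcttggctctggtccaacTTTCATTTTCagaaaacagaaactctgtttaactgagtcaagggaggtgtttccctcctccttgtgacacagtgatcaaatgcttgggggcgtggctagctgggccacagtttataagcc

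Isg15 holds 3 overlapping matches, which begin 78, 72 and 66 bases before the end of the window, and Rsad2 holds 1 match on the opposite strand. The motif was searched on both strands in RefSeq's windows of the same length, where it occurred in 13 of 24 matched genes of the interferon list (54.2%) and 3 of 13 of the MHC class I list (23.1%), against 936 of 27025 genes (3.46%). A match describes the letters and does not show that a factor binds there.

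Isg15 had 10825 CPM in null-labelled and 2301 CPM in control-labelled members, 4.70-fold higher (4.46 to 4.97). Late erythroblasts had 44651 (null) and 2557 CPM (control). Rsad2 had 6016 (null) and 3642 CPM (control), 1.65-fold higher. Ifitm3, whose membrane protein blocks virus entry, had 2699 (null) and 174 CPM (control), 15.5-fold higher (13.03 to 18.64). The guanylate-binding protein gene Gbp2 had 74 UMIs (null) against 1 (control), and the immunity GTPase gene Igtp 38 (null) against 5 (control). MHC class I genes, which present peptides to T cells and are induced by interferon, were at least 2-fold higher in 7 of 8 cases, with a median log2 ratio of 2.501. H2-T22 had 202 UMIs (null) against 7 (control), Tapbp, the tapasin gene, was 22.5-fold higher, H2-D1 6.38-fold and B2m 3.26-fold. With a limit of 150 genes the log2 ratio of the MHC class I list's summed CPM was 1.21, and with 250 genes 3.18, against 2.45 at 200. H2-D1, at log2 2.67, was at 0.91 with a limit of 150 genes, below 2-fold. Other genes at the upper end were Lgals9 (16.9-fold), Ogfr (11.8-fold), Samhd1 (7.27-fold), the chemokine gene Ccl5 with 49 UMIs (null) against 8 (control), and the acute-phase gene Saa3 with 49 UMIs (null) against 0 (control).

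Isg15 RNA was unevenly spread over the members. The median member had 0 Isg15 UMIs in both libraries. The 10% of members with the most held 81.8% of all Isg15 UMIs in the null-labelled and 83.1% in the control-labelled library. Rsad2 was less concentrated, with 62.2% (null) and 51.1% (control) of its UMIs in the 10% of members with the most. For the whole interferon list the median member had 1 UMI in both libraries. Thinned to 500 UMIs, 10.3% of null-labelled and 4.99% of control-labelled members had an Isg15 UMI, against 85.0% (null) and 16.4% (control) of late erythroblasts and 10.9% (null) and 1.75% (control) of the other barcodes with fewer than 200 genes. Thinned UMIs included hemoglobin, and non-hemoglobin UMIs were 4.19% of all UMIs in null-labelled members but 96.1% in the other sparse barcodes. The near-equal Isg15 shares of these sets therefore cannot be compared as levels. Of non-hemoglobin UMIs, the interferon list took 2.21% (null) and 0.666% (control) in members. In the other sparse barcodes it took 0.262% (null) and 0.0333% (control). Whether members express these genes was not tested. Any UMI of the 30 interferon genes was found in 18.3% of null-labelled and 14.2% of control-labelled members after thinning, and before it in 65.4% (null) and 51.2% (control).

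Among barcodes with at least 80% hemoglobin, interferon RNA depended on the number of genes. In barcodes with under 100 genes the list took 0.544% of non-hemoglobin UMIs in the null-labelled and 0.294% in the control-labelled library. The shares were 1.21% (null) and 0.651% (control) at 100 to 149 genes, and 3.59% (null) and 0.834% (control) at 150 to 199 genes. Just outside the rule, at 200 to 249 genes, they were 10.0% (null) and 0.938% (control), and at 250 to 299 genes 13.5% (null) and 1.10% (control). In percentage points the difference between the libraries was thus smallest where genes were fewest and large toward the late erythroblasts. There the list took 9.90% (null) and 0.730% (control). Under 100 genes the counting intervals still lay apart, at 0.490 to 0.602% (null) and 0.267 to 0.323% (control). For Isg15 the tenth group of members by genes, the richest, had 18.74 UMIs per barcode in the null-labelled and 2.19 in the control-labelled library, and the poorest group 0.10 (null) and 0.05 (control). The size of the ratio moved with the gene limit: with a limit of 150 genes the log2 ratio of the list's summed CPM was 0.89, and with 250 genes 2.48, against 1.73 at 200.

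**Figure D5:**
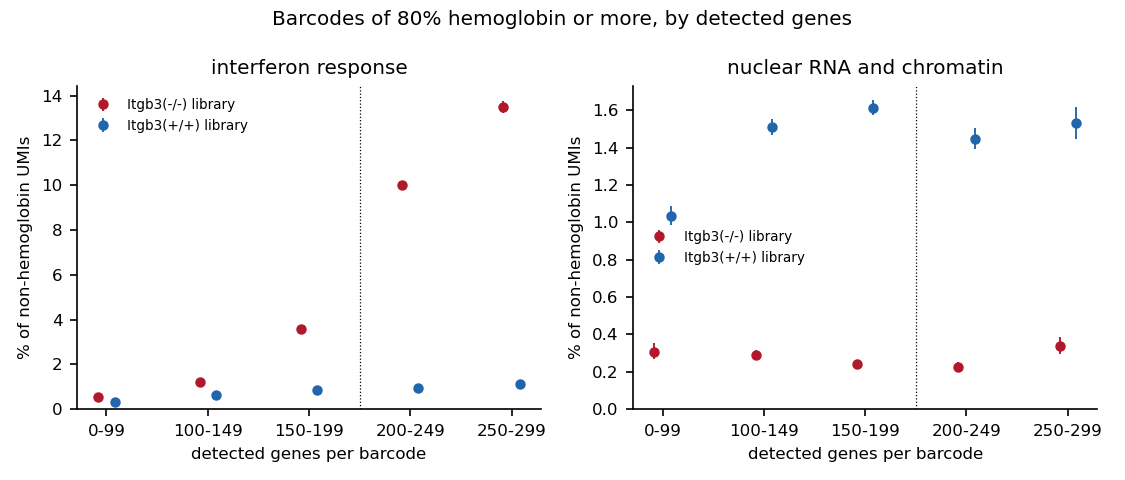
Barcodes with at least 80% hemoglobin are grouped by detected genes, and the percentage of their non-hemoglobin UMIs from interferon response genes (left) and from nuclear RNA and chromatin genes (right) is plotted for the Itgb3(-/-) library (red) and the Itgb3(+/+) library (blue), with exact 95% intervals of counting error and a dotted line at 200 genes. The interferon share of the Itgb3(-/-) library climbs to 13.5% with gene number, while its nuclear share stays between 0.226% and 0.339%, below the 1.04% to 1.61% of the Itgb3(+/+) library. In members of both libraries the nuclear share came mostly from the histone gene H3f3a.

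Chromatin genes were lower in the null-labelled members. Nuclear RNA and chromatin genes took 0.269% of non-hemoglobin UMIs in the null-labelled and 1.47% in the control-labelled members, and 8 of 9 were at least 2-fold lower, with a median log2 ratio of -1.62. H3f3a, a replacement histone gene, had 2082 (null) and 13152 CPM (control), 6.32-fold lower. It gave 833 of the list's 1076 UMIs in null-labelled and 10747 of 12008 in control-labelled members, so the list's share mostly follows this gene. The chromatin protein gene Hmgb2 was 3.21-fold lower and Malat1 2.61-fold lower. Late erythroblasts had near-equal shares of this list, 3.96% (null) and 4.04% (control), but Malat1 led the list there, so these shares stand for other genes. Outside the list, Pabpc1, which encodes the protein that coats poly(A) tails, had 1702 (null) and 14349 CPM (control), 8.43-fold lower (7.80 to 9.12). Among 6 erythroid regulators compared, 1 was at least 2-fold higher and 2 at least 2-fold lower, with a median log2 ratio of -0.19. The transcription cofactor gene Lmo2 was 6.87-fold lower and Foxo3 2.39-fold lower, whereas Eif2ak1, the heme-regulated kinase that limits translation, was 2.45-fold higher. Other lower genes were the ubiquitin ligase gene Fbxo9 (7.83-fold) and the early response gene Jund (5.18-fold). Several lowly counted genes stood at the far end: Vbp1, a chaperone subunit gene, had 3 UMIs (null) against 205 (control), 33.5-fold lower with an interval of 11.3 to 164, the cochaperone gene Dnaja4 had 2 (null) against 127 (control), Swt1 2 (null) against 112 (control), Srp14, of the signal recognition particle, 7 (null) against 216 (control), Ccdc71l 5 (null) against 169 (control), and Odc1, the enzyme gene of polyamine synthesis, 10 (null) against 252 (control). Top2a, the DNA topoisomerase of dividing cells, had 0 (null) against 51 (control).

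Both patterns were recomputed at matched depth, among members of 3000 to 6000 UMIs, a range chosen after the data were seen. It held 146 null-labelled members with a median of 4624 UMIs and 72.5 genes, and 2380 control-labelled members with 4216 UMIs and 129 genes. The interferon list took 3.39% (null) and 0.682% (control) of their non-hemoglobin UMIs, and the nuclear list 0.243% (null) and 1.51% (control). Bpgm, at an equal level over all members, had a log2 ratio of -0.78 within this range, and the remodelling list -0.41. The members matched in UMIs thus differed in genes per barcode.

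Markers of several other marrow cell types differed between the libraries too, not all in 1 direction. Neutrophil markers took 0.401% of non-hemoglobin UMIs in the null-labelled and 1.10% in the control-labelled members, against 14.1% (null) and 15.9% (control) in all other barcodes, and 10 of 13 were at least 2-fold lower, with none at least 2-fold higher. Per member the list summed to 1.46 (null) and 2.89 UMIs (control), and Ly6g was at 0 in the null-labelled members. The calprotectin gene S100a9 had 637 (null) and 3666 UMIs (control), 2.82-fold lower, Lyz2 9 (null) and 357 UMIs (control), and Retnlg 8 (null) and 298 UMIs (control). After thinning, S100a9 was found in 4.36% of null-labelled and 14.9% of control-labelled members and in 4.77% (null) and 18.2% (control) of late erythroblasts. The share in members is not read as expression, and its source was not tested. In all other barcodes Lyz2 had 508 (null) and 5045 CPM (control) and Retnlg 485 (null) and 4621 CPM (control), so that both were low in the whole null-labelled library. Platelet markers summed to 6 UMIs in the null-labelled members, where 12 of 14 were at 0, and to 450 in the control-labelled ones, led by Pf4 with 4 (null) against 226 (control) and Ppbp with 0 (null) against 117 (control). T and NK cell markers summed to 55 (null) and 34 UMIs (control), a share 3.30-fold higher in the null-labelled members (2.12 to 5.23), of which Ccl5, above, gave 49 (null) and 8 UMIs (control). Of these 12 markers, 8 were at 0 in the null-labelled members, including Cd3d, Cd3e, Cd3g and Trac, and 1 in the control-labelled members. B cell markers took near-equal shares of non-hemoglobin UMIs, 0.0372% (null) and 0.0412% (control), a ratio of 0.90 (0.74 to 1.10). Monocyte markers took 0.0135% (null) and 0.0335% (control), and early progenitor markers 0.0035% (null) and 0.0086% (control), with Kit, Gata2, Myc, Cd34 and Gfi1b at 0 in the null-labelled members. The part of RNA from other cells in the differences between the libraries was not tested.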

How the data were processed

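Bone marrow cells were profiled by droplet single-cell RNA sequencing (10x Genomics 3′ chemistry) in 2 libraries, 1 per genotype. The authors deposited whole-number UMI counts per gene and barcode, without normalization. Per the submitters' processing notes, Cell Ranger 3.0 and Seurat were used with build mm10; per the file headers the software version was 3.1.0. Strand use in counting and earlier filters: not given in the sources used here.

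Counts were read with Python 3.11.15, numpy 2.4.6, pandas 2.3.3 and scipy 1.17.1, and plotted with matplotlib 3.10.9. Members were chosen by the rule in the text, and no doublet caller was run on them. Library totals were 44694854 and 79192158 UMIs in the null-labelled and control-labelled library. UMIs of members were summed per library and given as CPM of non-hemoglobin UMIs. Shares carry Clopper-Pearson intervals and ratios exact conditional intervals. Genes with at least 30 UMIs over the groups compared were counted by size, at 2-fold, and a count of 0 was replaced by 3 UMIs for a bound. The intervals were tested on simulated counts of 1184 genes and covered the true ratio for 95.9% of them. These counts were drawn with counting error alone, as the intervals assume. The coverage therefore checks the calculation and not the spread between barcodes or animals. For shares of barcodes with a UMI, each barcode was thinned to 500 UMIs.

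Named genes were Bpgm, Itgb3, Apoe and Alas2, the 20 with the highest CPM, the 12 highest and 12 lowest between libraries and the 10 highest and 10 lowest against late erythroblasts by the interval bound nearest to 1, and in each list the 2 most abundant and the 2 with the largest ratio. The genes described across groups by detected genes, and those named from the deposited counts outside this rule (Mpp1, Blvrb, Rplp1, Tfrc, Ly6g and the markers at 0), were chosen after their values were seen. The rankings leave out predicted genes, sex-linked markers and immunoglobulin segments, and some genes that the rule names are not reported here. Of the list genes, 330 of 332 matched the features. Promoter windows are from RefSeq, GRCm38.p6, and gene positions from GENCODE for GRCm38. Members and lists were chosen with earlier results of these data known.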

Additional observations from a re-analysis of the deposited data

How the results depend on the processing

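No paired analysis was possible because each genotype has 1 library, so no replicate could be left out and no sample could be set apart as an outlier. Of 953 values for genes, lists and shares under 16 alternatives other than the main summaries, 705 stayed within their counting interval. The sign changed in 54, of which 18 arose among members of 3000 to 6000 UMIs and 12 under scaling by the median ratio. Only 4 of the 54 were of values at least 2-fold from 1 on at least 30 UMIs: the list of Itgb3, Itga2b, Itgav and Apoe (log2 -1.03) was 0.081 as a mean over barcodes and 2.22 among members of 3000 to 6000 UMIs, where monocyte markers (-1.31) were 0.45 and Top2a (-3.06) was 0.75. Both Top2a values are bounds from 0 null-labelled UMIs set to 3, so its change of sign is not read as a reversal. Other sign changes in this range, as for Abcb10 and Btg2, also rest on 0 null-labelled UMIs. The cause of the remaining changes was not tested.

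All values below are log2 ratios, null-labelled over control-labelled, unless they are counts of genes. The share of members (0.08) was 0.18 with 90% hemoglobin. The non-hemoglobin share (-0.70) was -0.72 below 150 genes, -0.66 below 250 genes, -0.63 with 90% hemoglobin, -0.70 with 70% hemoglobin or at most 10% mitochondrial UMIs, and -0.82 at 3000 to 6000 UMIs. The alpha to beta ratio (0.31) was 0.31 below 150 and below 250 genes and 0.24 at 3000 to 6000 UMIs. Genes at least 2-fold higher (80) numbered 39 below 150 genes, 121 below 250, 155 scaled by the median ratio, 197 with a minimum of 10 UMIs, 4126 with none and 126 at 3000 to 6000 UMIs. Genes at least 2-fold lower (394) numbered 228 below 150 genes and also 228 scaled by the median ratio, 978 with a minimum of 10 UMIs, 1342 with none and 177 at 3000 to 6000 UMIs. Fewer or more genes were tested under these limits and minimums by construction. Absent counts were also replaced by the bound described above. With no minimum, or among members of 3000 to 6000 UMIs, a gene without null-labelled UMIs can therefore count as higher. The counts of 4126 and 126 are not read as numbers of genes raised in the null-labelled members.

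Remodelling genes (-0.01) were at -0.054 below 150 genes, -0.030 as a mean over barcodes, 0.47 scaled by the median ratio, 0.051 with mitochondrial genes, Malat1 and Gm42418 out of the denominator and -0.41 at 3000 to 6000 UMIs. Nuclear genes (-2.45) were at -2.21, -2.20, -1.97 and -2.64 below 150 genes, as a mean, by the median ratio and at 3000 to 6000 UMIs. Interferon genes (1.73) were at 0.89 below 150 genes, 2.48 below 250, 1.80 with 90% hemoglobin, 1.79 without the deepest 5% of members and with the reduced denominator, 1.59 as a mean, 2.21 by the median ratio and 2.31 at 3000 to 6000 UMIs. Bpgm (0.04) was at -0.032 below 150 genes, 0.0077 below 250, 0.52 by the median ratio, 0.097 with the reduced denominator and -0.78 at 3000 to 6000 UMIs. The thinned share with Isg15 (1.04) was 0.62 below 150 genes and 1.59 below 250, taken there as the share expected over all draws. Against late erythroblasts with at least 80% hemoglobin, 6 genes in place of 48 were at least 2-fold higher and 197 in place of 1214 at least 2-fold lower.

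With 1 library per genotype, animals, handling and genotype cannot be told apart. A count of 0 among the 400099 non-hemoglobin UMIs of the null-labelled members allows up to 3. Depth per barcode and the gene limit act together on which barcodes are members.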
